A study of Mus musculus with 5 samples.

Results

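Subcluster C4 is one of the groups into which the authors divided the monocytes, macrophages and dendritic cells of foreign body granulomas and a control. It is described here by its genes. Its members are the cells that the deposited table of cells assigns to C4, which are 2771 of the 28814 myeloid cells and of 41191 cells in all. The working name, Arg1 and Nos2 inflammatory macrophages, rests on 6 genes: Arg1, Nos2, Ly6i, Saa3, Fcgr1 and Aif1. A granuloma is the nodule of macrophages and connective tissue that forms around material the body cannot remove. The series has 5 mouse libraries made with a droplet-based 3' kit, in which a molecular identifier (UMI) tags each captured transcript. They are granulomas around silk at 4 weeks, silk at 2 weeks, sponge at 4 weeks and sponge at 2 weeks, and a control of macrophages elicited with thioglycollate, a sterile irritant. The labels used here give no strain, age, sex or genotype of the mice, nor the number of animals behind a library. Each condition had 1 library, so no test between conditions was run, and every interval below is a 95% interval for counting error only.

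Macrophages can handle the amino acid arginine in opposing ways. The inducible nitric oxide synthase encoded by Nos2 turns arginine into citrulline and nitric oxide, which damages microbes and also cells of the host, and in mice it is known as a gene switched on by interferon gamma and bacterial products. Arginase 1, encoded by Arg1, splits the same arginine into urea and ornithine, from which polyamines and the proline of collagen are made, and it is known from macrophages exposed to interleukin-4, to hypoxia or to dying cells. A macrophage recruited to an implant arises from a blood monocyte, and may pass through an inflammatory state before it acquires the lysosomal and lipid-handling programme of long-lived granuloma macrophages.

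C4 was largely a population of 1 library. Sponge at 2 weeks gave 2542 of its 2771 cells (91.7%), while silk at 4 weeks gave 14, silk at 2 weeks 139, sponge at 4 weeks 71 and the control 5. As a share of the myeloid cells of a library, C4 made up 1.27% in silk at 4 weeks (exact Clopper-Pearson interval 0.694 to 2.11) and 1.85% in silk at 2 weeks (1.55 to 2.18). The share was 1.47% in sponge at 4 weeks (1.15 to 1.85), against 34.2% in sponge at 2 weeks (33.1 to 35.3), and it was 0.0632% in the control (0.0205 to 0.147). The sponge library at 2 weeks thus stood apart from the other 4, where no share was above 1.85%. Counting error does not cover differences between animals or in how well a cell type came out of the tissue, and these were not measured. A subcluster was compared in a library where it had at least 50 cells, so C4 of silk at 4 weeks and of the control entered no contrast.

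The neighbours set beside C4 in sponge at 2 weeks were C3 with 486 cells, C5 with 1357 and C7 with 1122. The sums behind the levels were 16647463 UMIs in C4, against 2134408 in C3, 7274520 in C5 and 10811796 in C7, and a level (CPM) is the gene's UMIs scaled to a sum of 1e+06. The median C4 cell held 5639.5 UMIs, 1955.5 genes and 2.78% mitochondrial UMIs, against 4469, 1628 and 3.31% in C3, 4478, 1815 and 4.10% in C5, and 6793.5, 2257.5 and 3.68% in C7. Of 41038 barcodes in the series, 153 occurred in more than 1 library, and 26 C4 cells carried such a barcode. The authors drew the subclusters from the expression of these same cells, so differences between C4 and its neighbours describe the clustering and are given without a test.

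Transcripts of other cell types were present in every one of these subclusters, and their part in the results was not tested. The 8 neutrophil markers, with S100a8 the highest of them in C4, summed to 305 CPM in C4, against 290.0, 139.8 and 194 CPM in C3, C5 and C7. The 6 fibroblast markers summed to 396 CPM in C4, against 458, 495 and 336 CPM. Endothelial markers summed to 33.2 CPM in C4, against 15.0, 14.8 and 17.2 CPM. Markers of T and NK cells, B cells and mast cells each stayed below 5 CPM in C4, with 2 of 6, 2 of 4 and 1 of 5 of them at 0. Dendritic cell markers summed to 10.6 CPM in C4, against 73.6, 7.15 and 3.88 CPM. The markers other than those of dendritic cells were then summed in each cell. Cells with at least 3 such UMIs made up 64.4% of C4, against 52.1%, 57.3% and 67.1% of C3, C5 and C7. This limit was not scaled to the UMIs of a cell. No doublet caller was run. The main counts were repeated without those cells instead.

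All 6 genes behind the name were highest in C4 among the 7 myeloid subclusters of sponge at 2 weeks. Arg1 (chromosome 10, 24915221 to 24927484) stood at 1054.5 CPM in C4, and at 3.75, 111 and 374 CPM in C3, C5 and C7. Nos2 (chromosome 11, 78920787 to 78960254) stood at 226 CPM in C4 and at 1.41, 0.412 and 2.77 CPM in C3, C5 and C7. Saa3 (chromosome 7, 46711998 to 46715700), an acute phase protein made by inflamed tissue, stood at 3893 CPM in C4 and at 63.2, 246 and 80.4 CPM in C3, C5 and C7. These 3 differ in how closely they mark C4: Nos2 was nearly confined to it among the neighbours, while Arg1 was shared with C7 and with C6, where it reached 412 CPM. Ly6i (chromosome 15, 74979534 to 74983430), a member of the Ly6 family of surface proteins whose genes resemble each other, stood at 290.4 CPM in C4 and at 53.4, 3.71 and 4.72 CPM in C3, C5 and C7. Fcgr1 (chromosome 3, 96282909 to 96293969), the high-affinity Fc gamma receptor, stood at 403 CPM in C4 and at 196, 262 and 133 CPM. Aif1 (chromosome 17, 35170991 to 35176068), a cytoskeletal protein of macrophages, stood at 811 CPM in C4 and at 234, 401 and 155 CPM. GENCODE M21 lists all 6 as protein-coding genes, and its coordinates refer to the build GRCm38, also called mm10. Since these genes were chosen for C4 and the subclusters were drawn from the same cells, their rank describes C4 and is no test of its name.

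The same genes were looked up in the C4 cells of the other granulomas. Arg1 was at 0 in C4 of silk at 4 weeks, where 3 counts would be 44.0 CPM, and at 269.6 CPM in silk at 2 weeks, 58.0 CPM in sponge at 4 weeks and 1054.5 CPM in sponge at 2 weeks. Nos2 was at 0, 24.0, 12.9 and 226 CPM in the same order of libraries. Saa3 was at 0, 398, 3.22 and 3893 CPM. All 3 levels were lower in C4 of the other granulomas than in C4 of sponge at 2 weeks. As a ratio, Arg1 of silk at 2 weeks was the nearest to it. Ly6i was at 88.0, 239.9, 58.0 and 290.4 CPM, Fcgr1 at 103 (7 UMIs), 354, 412 and 403 CPM, and Aif1 at 469.6, 518, 422 and 811 CPM. Aif1 thus stood above 100 CPM in C4 of every granuloma. For Fcgr1 in silk at 4 weeks, 7 UMIs are too few to place the level above 100 CPM.

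**Figure D1:**
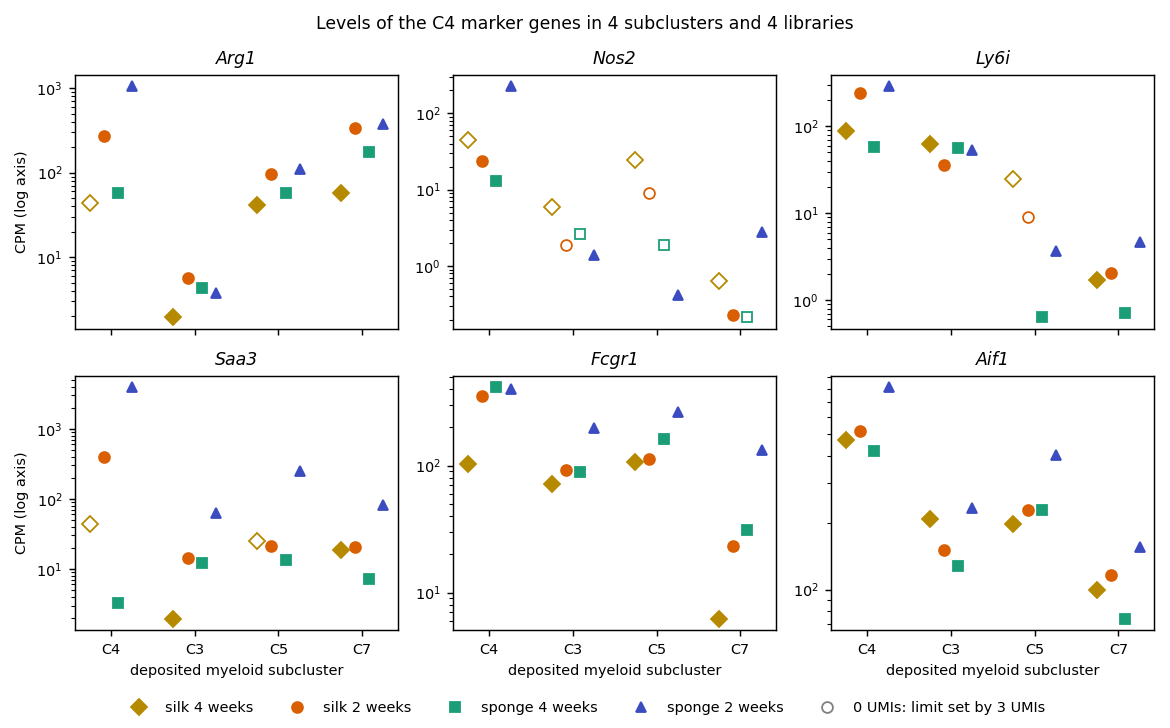
Level in CPM (log axis) of the 6 genes that name C4, in C4, C3, C5 and C7 of each granuloma library. Each point is 1 library and subcluster, open points mark 0 UMIs and stand at the limit set by 3 UMIs; Nos2 in C4 of sponge at 2 weeks, at 226 CPM, is far above every other point of its panel.

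A short list of genes was higher in C4 than in all 3 neighbours in sponge at 2 weeks, among them members of the arginine, chemokine, acute phase, interferon gamma, MHC class II and hypoxia lists. A gene was counted when it differed at least 2-fold, as the log2 ratio of (CPM + 10), provided that the higher subcluster had no fewer than 100 UMIs and 50 CPM for it. Of 2872 genes that met the limits against each neighbour, 36 (1.25%) were higher in C4 than in every one of C3, C5 and C7, and 1 (0.0348%), Pdlim1, was lower. When cells with at least 3 UMIs of other cell types were left out, which kept 904 of 2542 C4 cells, 27 of the 36 were counted again. The 9 that were not are Ass1, Dst, Gbp2, Inhba, Mif, Ptges, Slpi, Sod2 and Wfdc21, and Pdlim1 was not counted either. Under that setting the smallest log2 ratio over the 3 neighbours was 3.65 for Nos2, 2.60 for Saa3, 4.09 for Ccl5 and 1.02 for Arg1. Of the 36 genes, 26 have a promoter window in RefSeq, considered with the interferon genes below.

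The 3 genes with the highest smallest ratio over the neighbours were Ccl5, Nos2 and Saa3, followed by AW112010, annotated here with no role, at 1048 CPM in C4 and at 82.0, 75.7 and 56.1 CPM in C3, C5 and C7. Ccl5, a chemokine that attracts T cells and monocytes, stood at 836 CPM in C4 and at 12.6, 29.1 and 21.1 CPM in C3, C5 and C7, with a log2 ratio of 5.31 (5.12 to 5.50) over C7. Cxcl9, a chemokine for T cells that interferon gamma induces, stood at 82.2 CPM in C4 and at 2.34, 10.0 and 2.40 CPM. Acod1, the enzyme that makes the antimicrobial metabolite itaconate, stood at 253 CPM in C4 and at 16.4, 24.7 and 33.6 CPM. Fpr2, a receptor for formylated peptides and serum amyloid A, stood at 194 CPM in C4 and at 28.6, 32.6 and 16.6 CPM. Enzymes that lead to prostaglandin E2 were among the 36 genes. Ptgs2, the inducible cyclooxygenase, stood at 1122 CPM in C4 and at 275, 77.7 and 75.1 CPM, and Ptges, which makes prostaglandin E2 from its product, at 76.0 CPM in C4 and at 1.87, 1.65 and 7.31 CPM. Inhba, whose product forms activin A, stood at 184 CPM in C4 and at 44.0, 6.05 and 47.8 CPM. Upp1, which splits uridine, stood at 108 CPM in C4 and at 12.6, 3.99 and 7.86 CPM.

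The arginine pathway was represented by 3 of its 8 genes that met the limits. Arg1 and Nos2 were chosen to name C4, so their part in this count is no test. The other was Ass1, which rebuilds arginine from the citrulline that nitric oxide synthase leaves. Ass1 stood at 213 CPM in C4 and at 47.3, 7.97 and 100 CPM in C3, C5 and C7. Its log2 ratio of (CPM + 10) over C7 was 1.01. It was not counted with 50 CPM added, with cells thinned to 1000 UMIs, or with means over cells. Nor was it counted without cells with at least 3 UMIs of other cell types. Arg1 and Nos2 separated the neighbours differently. The log2 ratio of C4 over C7 was 1.495 (1.446 to 1.545) for Arg1 with 4045 UMIs in C7, whereas Nos2 had 30 UMIs in C7, 3 in C5 and 3 in C3 against 3761 in C4.

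Genes induced by interferon gamma and genes of antigen presentation made up a further group. Of the 14 members of the interferon gamma list that met the limits, 5 were higher in C4 than in each neighbour, namely Gbp2, Cxcl9, Cd274, Ly6i and Ly6a. Ly6i is also among the genes chosen to name C4. Cd274, which encodes the checkpoint ligand PD-L1, stood at 230.4 CPM in C4 and at 50.6, 42.3 and 68.7 CPM in C3, C5 and C7. Gbp2, a guanylate-binding protein that acts on membranes of intracellular microbes, stood at 279 CPM in C4 and at 113, 102 and 32.9 CPM. Of 8 MHC class II genes that met the limits, 4 were higher, and H2-Ab1, the beta chain of a class II molecule, stood at 2124 CPM in C4 and at 470, 848 and 498 CPM. Of 17 MHC class I genes that met the limits, 2 were higher, H2-Q6 and H2-Q7. They are near-identical copies between which reads can be split, and were at 74.2 and 293 CPM in C4, against at most 15.5 and 100 CPM in the neighbours. Of 10 type I interferon genes that met the limits, 0 were higher in C4 than in each neighbour.

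Of 22 genes of the glycolysis and hypoxia list that met the limits, 4 were higher in C4 than in every neighbour: Bnip3, Ero1l, Ndrg1 and Mif. Low oxygen is known to induce these 4. Genes outside this list can respond to it too, such as Arg1, which was counted with the arginine genes. Bnip3, which marks mitochondria for removal, stood at 214 CPM in C4 and at 17.3, 43.4 and 58.9 CPM in C3, C5 and C7. Mif, a cytokine, stood at 1139 CPM in C4 and at 127, 244 and 504 CPM. Pdlim1, an adaptor of the actin cytoskeleton, was the 1 gene lower in C4, at 15.3 CPM and at 71.7, 91.0 and 50.6 CPM in the neighbours.

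**Figure D2:**
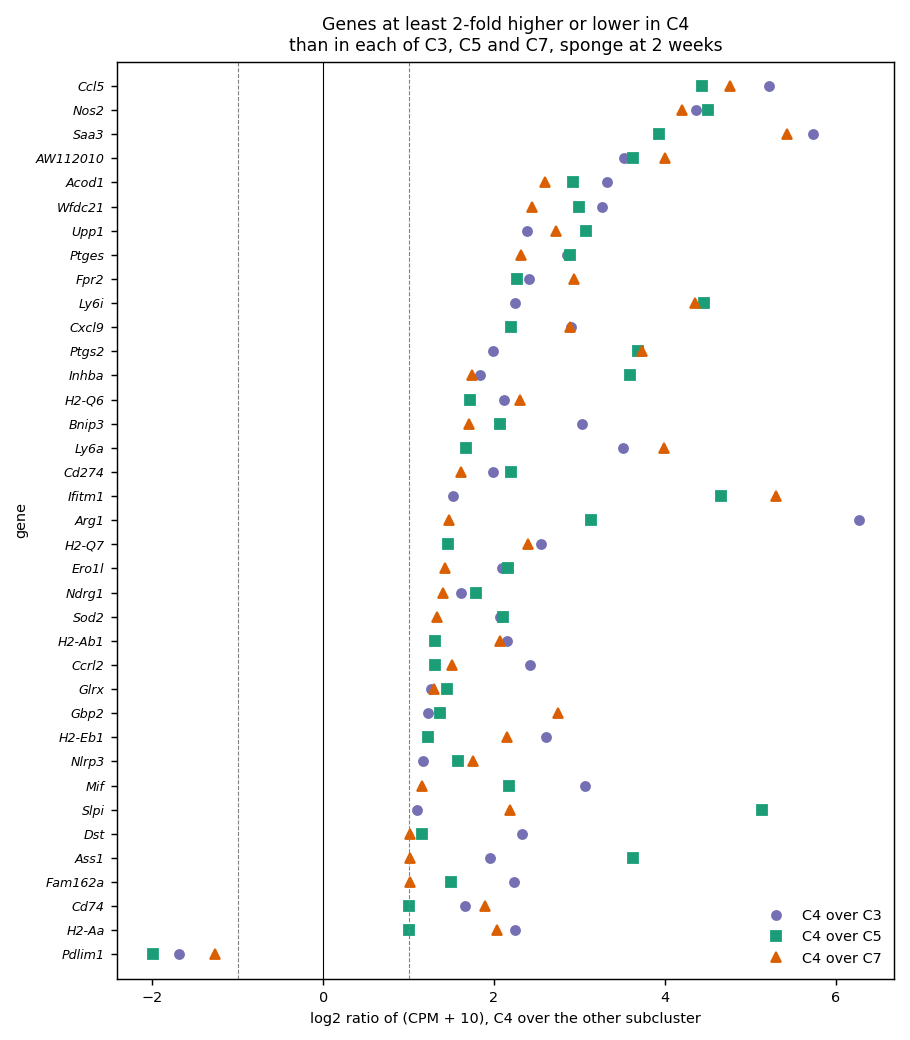
Log2 ratio of (CPM + 10) of C4 over C3, C5 and C7 in sponge at 2 weeks for the 36 genes higher and the 1 gene lower than in each; dashed lines mark 2-fold. Ccl5, Nos2 and Saa3 head the list with ratios near or above 4 over every neighbour, while Arg1 ranges between 1.47 over C7 and 6.27 over C3.

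Against C3, which held the highest Ly6c2 of these subclusters, C4 carried the genes of differentiated macrophages and fewer transcripts of the blood monocyte. Of 3182 genes that met the limits, 313 (9.84%) were higher in C4 and 205 (6.44%) were lower. Pf4, a chemokine of tissue macrophages, stood at 1952 CPM in C4 and 48.7 CPM in C3, a log2 ratio of 5.32 (5.05 to 5.62). C1qa, a chain of complement C1q, stood at 1444 CPM in C4 and 44.5 CPM in C3, and Spp1, which encodes osteopontin, at 3726.5 CPM in C4 and 137 CPM in C3. For gene lists, members with at least 20 UMIs in both subclusters together were counted, and by that rule 4.5% of 10922 genes exceeded 2-fold upwards in C4 and 2.44% downwards, with a median of 0.06. The foreign body and lipid-associated list had 13 members higher and 1 lower of 17, with a median log2 ratio of 2.23. Chemokines had 12 higher and none lower of 18 (median 2.69), and complement 7 higher and 1 lower of 12 (median 1.69). The monocyte list ran the other way, with none higher and 10 lower of 15 (median -1.32). Chil3, a chitinase-like protein of monocytes, stood at 65.2 CPM in C4 and 917 CPM in C3. Ly6c2, a surface marker of inflammatory monocytes, stood at 698 CPM in C4 and 1705 CPM in C3, so it was lower than in C3 but far from lost.

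Against C5, where Mrc1 and Selenop were high, C4 had higher monocyte and hypoxia-linked genes and lower levels of resident macrophage genes. Of 3305 genes, 192 (5.81%) were higher in C4 and 187 (5.66%) were lower, and under the limits for lists the shares were 2.27% and 2.38% of 11405 genes with a median of -0.09. None of 15 resident macrophage genes was 2-fold higher and 12 were lower, with a median of -1.88. Gas6, which bridges dying cells to phagocytes, stood at 23.3 CPM in C4 and 518 CPM in C5, a log2 ratio of -4.47 (-4.63 to -4.32). Selenop, a selenium carrier, stood at 505 CPM in C4 and 3912 CPM in C5, and Mrc1, the mannose receptor, at 459 CPM in C4 and 1709 CPM in C5. In the other direction stood acute phase and antimicrobial genes, with 11 of 14 higher and none lower (median 2.29), monocyte genes, with 9 of 15 higher (median 1.54), and glycolysis and hypoxia genes, with 15 of 25 higher (median 1.53). Saa3 of the acute phase list is also among the genes chosen to name C4. Slpi, a protease inhibitor also known from neutrophils, stood at 929 CPM in C4 and 16.8 CPM in C5, and Ifitm1 at 996 CPM in C4 and 29.8 CPM in C5. Genes that tissue dissociation induces, such as Egr1, had 3 of 20 lower in C4 (median -0.63), with Egr1 at 159 CPM in C4 and 809 CPM in C5.

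Against C7, where Mmp12 and Gpnmb were high, C4 had higher levels of interferon, inflammatory and monocyte genes and lower levels of foreign body and lipid-associated genes. Of 3132 genes, 275 (8.78%) were higher in C4 and 102 (3.26%) were lower, and under the limits for lists the shares were 3.02% and 1.28% of 11507 genes with a median of -0.03. The interferon gamma list had 18 of 21 members higher and none lower (median 1.67), the type I interferon list 14 of 18 (median 1.25), and MHC class I genes 12 of 18 (median 1.15). Acute phase and antimicrobial genes had 11 of 14 higher (median 2.31), and inflammatory cytokines 11 higher and 1 lower of 17 (median 1.43). Ly6i of the interferon gamma list and Saa3 of the acute phase list were chosen to name C4, so their part in these counts is no test. Plac8, a gene of monocytes, stood at 1273.5 CPM in C4 and 13.6 CPM in C7, a log2 ratio of 6.55 (6.32 to 6.79), and Ly6c2 at 698 CPM in C4 and 8.42 CPM in C7. Il1b, which encodes interleukin-1 beta, stood at 3102 CPM in C4 and 355 CPM in C7. The foreign body and lipid-associated list had none of 17 members higher and 12 lower (median -1.37). Ctsk, the collagen-degrading cathepsin K, stood at 62.5 CPM in C4 and 907 CPM in C7, and Gpnmb, a glycoprotein of lipid-laden macrophages, at 163 CPM in C4 and 1474 CPM in C7. Mmp12, a metalloproteinase that cuts elastin, stood at 488 CPM in C4 and 2983 CPM in C7. Spp1 stood at 3726.5 CPM in C4 and 11436 CPM in C7, so that for Spp1 and Gpnmb C4 lay between C3 and C7. Of the 20 dissociation genes 6 were at least 2-fold higher in C4 than in C7 and none lower (median 0.50), and their part in the result was not tested.

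**Figure D3:**
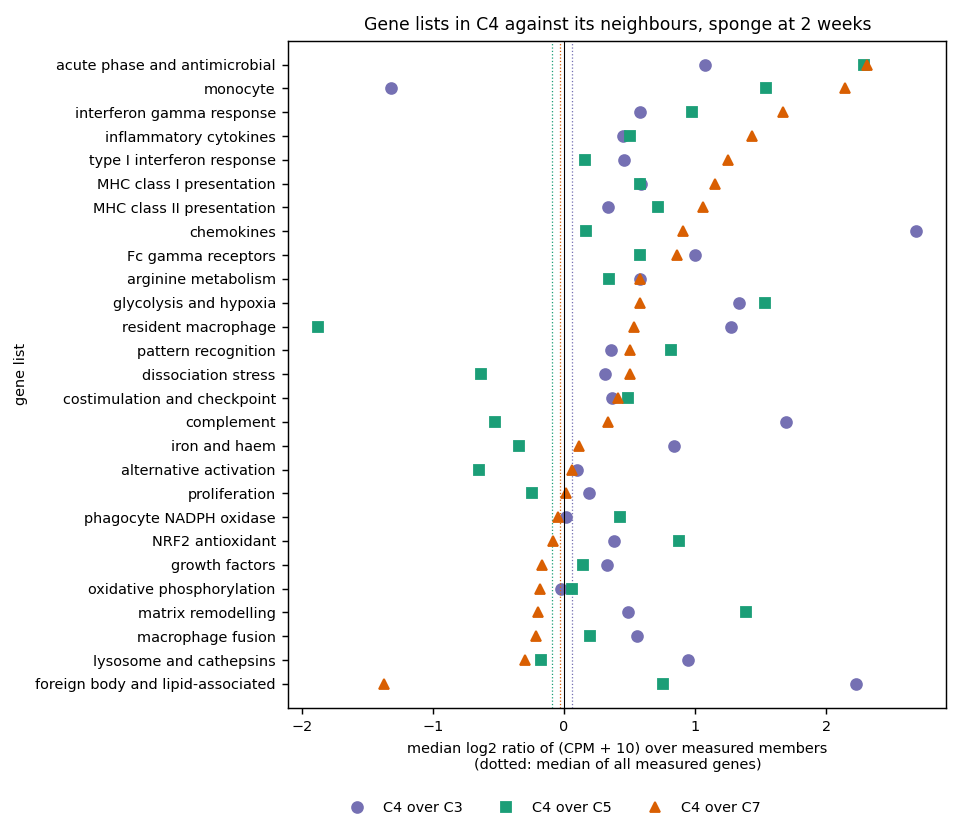
Median log2 ratio of (CPM + 10) over the measured members of 27 gene lists, for C4 over C3, C5 and C7 in sponge at 2 weeks; dotted lines are the medians of all measured genes. The monocyte list lies at -1.32 against C3 and at 2.15 against C7, and the foreign body list at 2.23 against C3 and at -1.37 against C7.

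In the other libraries the same 36 genes were looked up in the C4 cells found there. In silk at 2 weeks, with 139 C4 cells, 33 of the 36 genes had enough UMIs against every neighbour, and 28 of these were above 0 and 18 at least 2-fold higher against each of C3, C5 and C7. In sponge at 4 weeks, with 71 C4 cells, 24 of 28 genes were above 0 and 11 at least 2-fold higher against each. Taken singly there, 27 of 29 genes with enough UMIs were above 0 against C3, 28 of 30 against C5 and 26 of 35 against C7. Against C7, 18 of the 35 were at least 2-fold higher and 2, Arg1 and Slpi, at least 2-fold lower. Under the same UMI limit, the share of all genes at least 2-fold higher against C3, C5 and C7 was 7.17%, 8.94% and 2.76% in silk at 2 weeks, and it was 1.3% against all 3 together. In sponge at 4 weeks it was 5.99%, 5.19% and 5.43%, and 0.874% against all 3 together. The smallest log2 ratio over the 3 neighbours had a median of 1.04 for these genes and -0.34 for all genes in silk at 2 weeks. In sponge at 4 weeks the medians were 0.61 and -0.30. Ccl5 stood at 149.6 CPM in C4 of silk at 2 weeks and at 11.2, 0 and 1.77 CPM in its C3, C5 and C7. In sponge at 4 weeks Ccl5 stood at 226 CPM in C4 and at 14.8, 19.1 and 1.36 CPM in C3, C5 and C7. Acod1 stood at 231 CPM in C4 of silk at 2 weeks, against at most 43.1 CPM in the neighbours, and at 132 CPM in C4 of sponge at 4 weeks, against at most 32.3 CPM. The label C4 was drawn from the expression of the cells in these libraries as well, so these values describe the clustering. Ccl5 and Acod1 stood higher in C4 than in C3, C5 and C7 in all 3 libraries that were compared. Arg1 did not: in sponge at 4 weeks it stood at 58.0 CPM in C4 and 176 CPM in C7, and in silk at 2 weeks at 269.6 CPM in C4 and 335 CPM in C7. Slpi likewise stood at 119 CPM in C4 and 258 CPM in C7 of sponge at 4 weeks. Whether the libraries differ in these contrasts was not tested.

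C4 of sponge at 4 weeks, set against C4 of sponge at 2 weeks, asks how the same subcluster differs with the age of the granuloma. Of 1589 genes that met the limits, 24 (1.51%) were higher at 4 weeks and 108 (6.8%) were lower, but the limits were unequal, since 100 UMIs amount to 322 CPM in C4 of sponge at 4 weeks and to 6.01 CPM in C4 of sponge at 2 weeks. Genes induced by type I interferon were higher at 4 weeks, with 10 of 18 at least 2-fold higher and none lower (median 1.06), beside 2.34% higher and 2.12% lower of 10755 genes with a median of 0.05. Ifit1, an inhibitor of foreign RNA translation, stood at 325 CPM at 4 weeks and 49.1 CPM at 2 weeks, a log2 ratio of 2.73 (2.42 to 3.03). Rsad2, the antiviral enzyme viperin, stood at 744 CPM at 4 weeks and 229.8 CPM at 2 weeks. In the neighbours Rsad2 was not higher at 4 weeks: it stood at 59.2 CPM at 4 weeks and 68.4 CPM at 2 weeks in C3, at 111 and 122 CPM in C5, and at 22.6 and 45.9 CPM in C7. Other type I interferon genes are not given for the neighbours, so whether the list is higher in C4 alone is not shown. Acute phase and antimicrobial genes had none of 14 higher at 4 weeks and 7 lower (median -1.03), and NRF2 antioxidant genes none of 13 higher and 6 lower (median -0.73). Glycolysis and hypoxia genes had 7 of 25 lower (median -0.64). Saa3 had 1 UMI at 4 weeks, 3.22 CPM, against 3893 CPM at 2 weeks. Its level was lower at 4 weeks in the neighbours too, at 12.2 CPM at 4 weeks and 63.2 CPM at 2 weeks in C3, 13.3 and 246 CPM in C5, and 7.14 and 80.4 CPM in C7. Ccl8, a chemokine, stood at 19.3 CPM at 4 weeks and 1628 CPM at 2 weeks. Lyz1 stood at 1573 CPM at 4 weeks and 46.9 CPM at 2 weeks, the highest ratio among genes that met the limits, and it was also higher at 4 weeks in C3, C5 and C7, where it stood at 78.3, 694 and 1058 CPM at 4 weeks and at 25.8, 125 and 294 CPM at 2 weeks. Lyz1 encodes a lysozyme whose sequence resembles that of Lyz2, so reads can be split between them. The median mitochondrial share of C4 cells was 5.12% at 4 weeks and 2.78% at 2 weeks, and dissociation genes had 3 of 20 higher at 4 weeks (median 0.48). Neutrophil markers summed to 177 CPM at 4 weeks and 305 CPM at 2 weeks, and cells with at least 3 UMIs of other cell types made up 36.6% of C4 at 4 weeks and 64.4% at 2 weeks. The part of these measures in the values was not tested.

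C4 of silk at 2 weeks, set against C4 of sponge at 2 weeks, compares the materials at the same age. Of 1922 genes, 29 (1.51%) were higher in silk and 54 (2.81%) were lower, with 100 UMIs worth 141 CPM in silk. Type I interferon genes were again higher, with 8 of 18 at least 2-fold higher and none lower (median 0.83), beside 0.676% higher and 0.815% lower of 10798 genes with a median of 0.05. Both contrasts share C4 of sponge at 2 weeks, so they are not independent of each other. Cmpk2, a nucleotide kinase induced by interferon, stood at 182 CPM in silk and 27.9 CPM in sponge, a log2 ratio of 2.71 (2.41 to 2.99), and Ifit1 at 226 CPM in silk and 49.1 CPM in sponge. Cxcl10, a chemokine induced by interferon, stood at 677 CPM in silk and 199 CPM in sponge. Fn1, fibronectin, stood at 4098 CPM in silk and 1375 CPM in sponge, and Chil3 at 261 CPM in silk and 65.2 CPM in sponge. Chemokines as a list had 3 of 18 higher and 8 lower (median -0.88), and resident macrophage genes none of 13 higher and 5 lower (median -0.85). Ccl8 stood at 26.8 CPM in silk and 1628 CPM in sponge, and Nos2 at 24.0 CPM in silk and 226 CPM in sponge, a log2 ratio of -3.24 (-4.02 to -2.55). Levels of these genes in C3, C5 and C7 are not compared between silk and sponge here, so whether these differences are particular to C4 is not shown. Cells with at least 3 UMIs of other cell types made up 28.8% of C4 in silk and 64.4% in sponge, fibroblast markers summed to 135 CPM in silk and 396 CPM in sponge, and neutrophil markers to 220.2 CPM in silk and 305 CPM in sponge. Their part in these values was not tested.

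**Figure D4:**
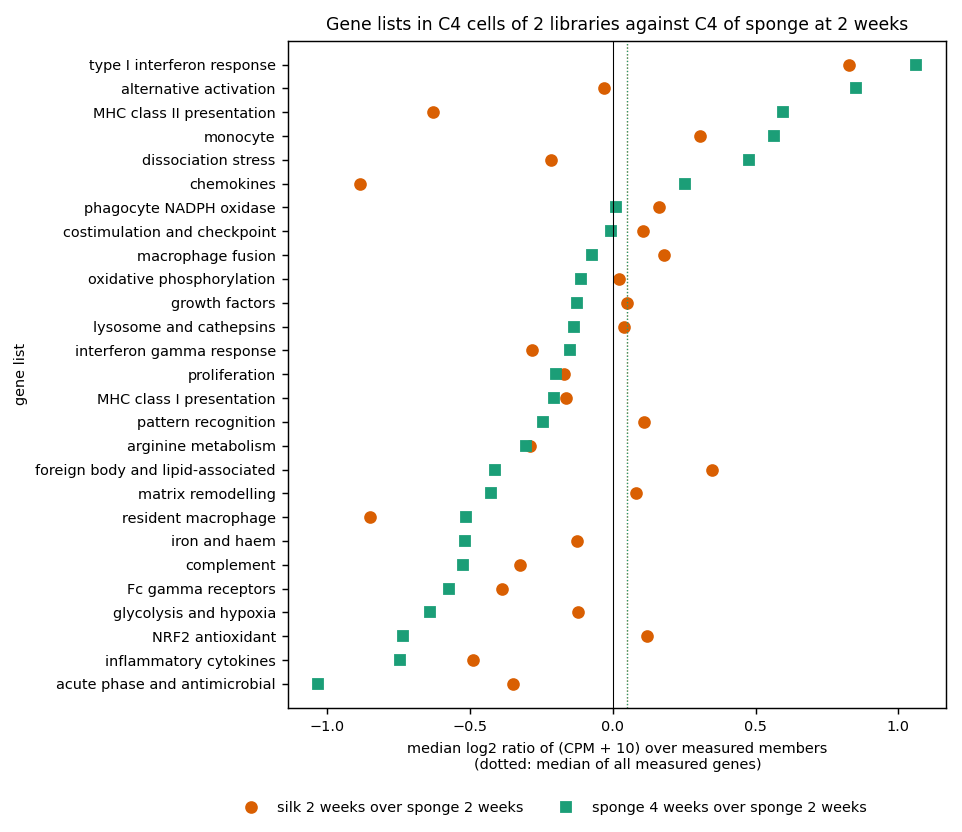
Median log2 ratio of (CPM + 10) over measured list members for C4 of silk at 2 weeks and C4 of sponge at 4 weeks, each over C4 of sponge at 2 weeks, which both contrasts share; dotted lines are the medians of all measured genes. The type I interferon list is the highest in both, at 0.83 for silk at 2 weeks and 1.06 for sponge at 4 weeks.

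The promoters of these interferon genes can be shown with the element they are known for. The interferon-stimulated response element was searched as GAAA, any 2 bases and GAAA on both strands, with no mismatch, in windows from 250 bases before to 50 bases after a start site (RefSeq, GRCm38.p6). It occurred in the window of 7 of the 16 type I interferon genes with a window (43.75%) and 8 of 15 interferon gamma genes (53.33%), against 1079 of 27025 genes of all (3.993%). Among the 36 genes higher in C4 than in every neighbour, 2 of the 26 with a window held it (7.692%), Saa3 and Gbp2. An NF-kappa-B motif, searched as GGGA, any base, TT, any base and CC on both strands, occurred in 1 of the 26, H2-Aa, against 1.377% of all genes. A match is a string of letters and not a measured binding site. The 250 bases before the start site are printed for Saa3 (chr7:46715677-46715926, minus strand) and Gbp2 (chr3:142620413-142620662, plus strand), the matching genes of C4, and for Ifit1 (chr19:34640639-34640888, plus strand), the type I interferon gene with the highest ratio in sponge at 4 weeks. Capitals mark the element, which reads TTTC, any 2 bases and TTTC on the printed strand in Gbp2 and Ifit1.
Saa3: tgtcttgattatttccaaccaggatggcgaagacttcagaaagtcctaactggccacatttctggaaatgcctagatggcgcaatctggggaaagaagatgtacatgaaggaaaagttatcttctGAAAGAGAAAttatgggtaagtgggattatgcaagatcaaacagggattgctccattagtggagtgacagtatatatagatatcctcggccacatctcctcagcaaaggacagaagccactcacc
Gbp2: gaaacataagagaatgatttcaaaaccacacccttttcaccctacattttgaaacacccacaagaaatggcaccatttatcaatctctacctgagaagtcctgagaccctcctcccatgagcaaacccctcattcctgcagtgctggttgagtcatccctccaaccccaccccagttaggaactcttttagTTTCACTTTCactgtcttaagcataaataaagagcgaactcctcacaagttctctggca
Ifit1: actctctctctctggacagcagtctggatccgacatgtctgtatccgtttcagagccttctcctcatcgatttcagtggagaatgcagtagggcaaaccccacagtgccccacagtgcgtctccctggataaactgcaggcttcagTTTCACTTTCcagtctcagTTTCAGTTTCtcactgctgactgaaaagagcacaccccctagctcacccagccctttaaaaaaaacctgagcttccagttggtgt
The element begins 125 bases before the start site in Saa3, 59 bases in Gbp2, and 104 and 85 bases in Ifit1, which holds it 2 times.

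In sponge at 2 weeks Arg1 and Nos2 were found in the same C4 cells more often than their separate frequencies would give. For shares of cells, each cell was thinned to 1000 UMIs, which left out 32 of 2542 C4 cells of sponge at 2 weeks. Arg1 was detected in 30.5% of C4 cells (28.7 to 32.3) and Nos2 in 12.1% (10.8 to 13.4). Without thinning the shares were 48.7% and 23.2%. Both were detected in 170 of 2510 cells, or 6.77% (5.82 to 7.83), where independent detection would give 3.68%, and neither in 64.2%. Arg1 was detected in 56.1% of the 303 cells with Nos2 (50.3 to 61.8), against 27.0% of the 2207 cells without it (25.1 to 28.9). Every cell entered these shares at 1000 UMIs. Before thinning the median was 5994 UMIs in cells with Nos2 and 5609 in cells without. In NK and T cells of the same library, which should lack both genes, Arg1 was detected in 2.76% and Nos2 in 0 of 435 cells, where the 3-count limit allows a share of cells with a UMI at this depth of up to 0.690%, with a median of 3344 UMIs against 5678 in C4. Nos2 was also detected outside the myeloid cells, in 3.24% of 740 endothelial cells. Nos2 was detected in 0 of 477 C3 cells, where the 3-count limit allows a share of cells with a UMI at this depth of up to 0.629%, in 1 of 1292 C5 cells and in 1 of 1119 C7 cells, and Arg1 in 0.419% of the C3 cells, 6.35% of the C5 cells and in 224 of the 1119 C7 cells. Without thinning, 3 of 486 C3 cells had a Nos2 UMI. In C4 of silk at 2 weeks Nos2 was detected in 4, Arg1 in 20 and both in 2 of 139 cells, or 1.44% (0.175 to 5.10), where independent detection would give 0.414%. At 2000 UMIs the share with both was 0.8% there, where independence would give 0.928%. In C4 of sponge at 4 weeks Nos2 was detected in 1, Arg1 in 5 and both in 0 of 70 cells. The counts in these libraries are too small to show whether the genes occur together.

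The UMIs of Saa3, Nos2, Ccl5, Ccl8 and Cxcl9 lay in few C4 cells. In thinned C4 cells Saa3 was detected in 19.4%, and the 251 of 2510 cells with most Saa3 held 96.1% of its 8276 UMIs, with up to 196 of the 1000 UMIs of a cell. Cxcl9 was detected in 86 of the 2510 cells (3.43%), with 226 UMIs and up to 23 in a cell. Ccl8 was detected in 16.8%, and the 251 cells with most of it held 92.6% of its UMIs. For Ccl5 the 251 cells with most of it held 91.1% of the UMIs, for Arg1 63.3%, for Aif1 36.4% and for Lyz2, a lysozyme of most myeloid cells, 28.2%. A gene detected in few cells gives a high share by this measure, as Nos2 does with 90.5%. Beside C4, Saa3 was detected in 6.29% of C3, 9.29% of C5 and 4.83% of C7 cells. In NK and T cells, which should lack the gene, the share was 5.52%, so the shares in C3 and C7 were near that level. In fibroblasts it was 24.3%, above the share in C4. In CPM, C4 still exceeded C7 in Saa3 by a log2 ratio of 5.598 (5.501 to 5.696).

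C4 cells with a Nos2 UMI differed from C4 cells without one along the axis of inflammatory and resident genes. The cells were grouped by Nos2 itself, so Nos2 is left out, and the values describe 1 library with 303 and 2207 cells. Of 2084 genes that met the limits, 36 (1.73%) were higher in cells with Nos2 and 80 (3.84%) were lower. The limits were unequal, since 100 UMIs amount to 330.0 CPM in cells with Nos2 and 45.3 CPM in cells without, and thinning to 2000 UMIs turned the balance to 57 higher and 41 lower. For lists the shares were 1.56% and 3.99% of 7424 genes with a median of -0.13. Acute phase and antimicrobial genes had 9 of 14 higher and 2 lower (median 1.28), inflammatory cytokines 5 of 14 higher (median 0.94) and NRF2 antioxidant genes 4 of 13 higher (median 0.68). Saa3 stood at 12389 CPM in cells with Nos2 and 2049 CPM in cells without, a log2 ratio of 2.60 (2.53 to 2.66). Ccl5 stood at 2802 CPM in cells with Nos2 and 499.8 CPM in cells without, and Inhba at 785 CPM in cells with Nos2 and 141 CPM in cells without. Resident macrophage genes had none of 12 higher and 7 lower (median -1.08), alternative activation genes none of 9 higher and 4 lower (median -0.73). Ccl8 stood at 267 CPM in cells with Nos2 and 1010.0 CPM in cells without, and Timp2, an inhibitor of metalloproteinases, at 49.5 CPM in cells with Nos2 and 210 CPM in cells without. All 9 measured MHC class II genes were below 0, with 1 at least 2-fold lower (median -0.51), although H2-Ab1 and Cd74 are among the genes that were higher in C4 as a whole than in every neighbour.

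The grouping by Nos2 moved with other measures, whose part was not tested. The neutrophil markers summed to 677 CPM in cells with Nos2 and 239 CPM in cells without, and cells with at least 3 UMIs of other cell types made up 76.2% of the cells with Nos2 and 63.5% of the cells without. Without those cells 72 cells with Nos2 and 805 without remained, and 13 genes were higher and 66 lower. Saa3 then stood at 5361 CPM in cells with Nos2 and 891 CPM in cells without, Ccl5 at 2722 CPM in cells with Nos2 and 329 CPM in cells without, and Ccl8 at 139 CPM in cells with Nos2 and 759 CPM in cells without. The log2 ratios of these 3 genes were then 2.59, 3.05 and -2.45.

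C4 cells were grouped by Arg1 in the same way. Of 2159 genes, 24 (1.11%) were higher in the 765 cells with an Arg1 UMI than in the 1745 cells without, and 26 (1.2%) were lower, and for lists the shares were 0.7% and 0.876% with a median of -0.04. MHC class II genes had none of 9 higher and 5 lower (median -1.07), and type I interferon genes none of 17 higher and 3 lower (median -0.79). H2-Ab1 stood at 1200.0 CPM in cells with Arg1 and 3045 CPM in cells without, a log2 ratio of -1.34 (-1.45 to -1.24). Saa3 stood at 7908.5 CPM in cells with Arg1 and 1276 CPM in cells without. Resident macrophage genes, which were mostly lower in cells with Nos2, had 1 of 12 higher and none lower in cells with Arg1 (median 0.33). Matrix genes had 5 of 18 higher, with Mmp12 at 697 CPM in cells with Arg1 and 152 CPM in cells without. The median was 6255 UMIs before thinning in cells with Arg1 and 5473 in cells without. Cells with at least 3 UMIs of other cell types made up 71.0% of the cells with Arg1 and 62.5% of the cells without, and neutrophil markers summed to 359 CPM in cells with Arg1 and 262 CPM in cells without. Their part in these values was not tested.

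**Figure D5:**
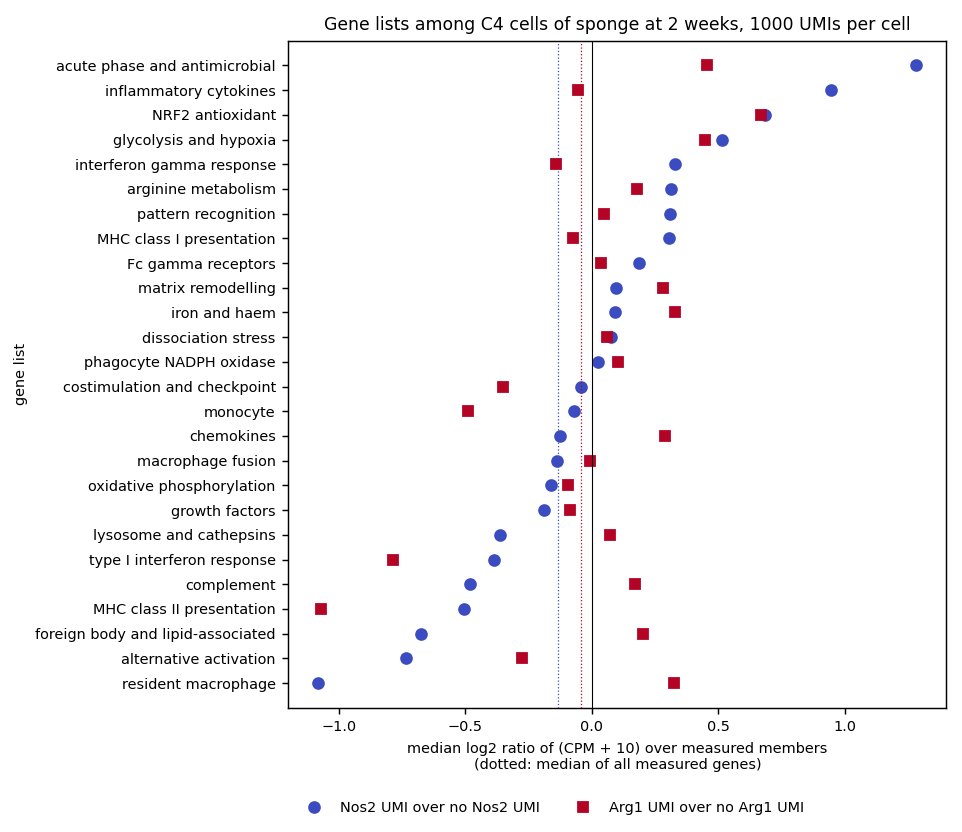
Median log2 ratio of (CPM + 10) over measured list members among C4 cells of sponge at 2 weeks thinned to 1000 UMIs, for cells with over cells without a Nos2 UMI, and for cells with over cells without an Arg1 UMI; dotted lines are the medians of all measured genes. Acute phase genes are above 0 in both, and resident macrophage genes lie at -1.08 for Nos2 and 0.33 for Arg1.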

How the data were processed

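Single cells of 5 mouse libraries were profiled with the Chromium 3' v3 kit, per the labels. The deposited matrix holds raw UMI counts, 21617 genes by 41191 cells, beside a table by the authors that names each cell's library, class and subcluster and gives its percent of mitochondrial UMIs, as deposited. Cell Ranger 3.0.0, Seurat 3.0 and the build mm10 are named per the submitters' processing notes. The cell filters used before deposit, the clustering settings and any removal of doublets are not stated by the labels or file headers. No cell was removed here in the main analysis.

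Counts were summed per library and subcluster and scaled to CPM, from 30891 UMIs in C4 of the control to 16647463 UMIs in C4 of sponge at 2 weeks. The 2-fold counts use log2 ratios of (CPM + 10), while single ratios printed with an interval are unmodified log2 ratios with exact conditional binomial intervals of 95%. Shares carry exact Clopper-Pearson intervals, except that a share of 0 is given with the 3-count limit. All such intervals and the 3-count limits cover counting error only. With 1 library per condition no p-value was computed. Lists took members with at least 20 UMIs, and a median needed at least 5. The genes named were taken from the 6 markers, the 14 highest and up to 10 lowest against all 3 neighbours, the 6 highest and lowest of each single contrast and of the Nos2 grouping, the 8 highest and lowest of each contrast between libraries, and up to 4 members per list and direction. Dst, S100a8 and Sod2 fall outside this rule and were named after their values were seen. Members, lists and markers were chosen with earlier results of these data known. Alternatives were an offset of 50 CPM, no filter, thinning to 1000 or 2000 UMIs, centred ratios, means over cells, other denominators, 1 strand for motifs, and cells with other-class UMIs left out. The planned contrast of C4 in silk and sponge at 4 weeks was not made, as silk had 14 such cells. The steps were checked on simulated data. Python 3.11.15, numpy 2.4.6, scipy 1.17.1, pandas 2.3.3 and matplotlib 3.10.9 were used.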

Additional observations from a re-analysis of the deposited data

Results flagged for a closer look

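Each group had 1 library, so no outlier could be looked for. In 3 genes the ratio of C4 over a neighbour ran one way in sponge at 4 weeks and the other way in sponge at 2 weeks, both at least 2-fold. Arg1 in C4 over C7 had a log2 ratio of (CPM + 10) of -1.45 in sponge at 4 weeks and 1.47 at 2 weeks. Slpi in C4 over C7 had -1.05 in sponge at 4 weeks and 2.19 at 2 weeks. Lyz1 in C4 over C5 had 1.17 in sponge at 4 weeks and -1.25 at 2 weeks. The difference between the libraries was not tested in any of them, and the 71 C4 cells of sponge at 4 weeks gave 18 Arg1 UMIs.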

How the results depend on the processing

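Of 675 list medians and 735 single-gene ratios under alternatives, 34 and 2 had the other sign than the main value. The genes' values were both Fcgr1 in silk over sponge (-0.18), which did not reach 2-fold. Among the lists the alternative activation median of sponge at 4 over 2 weeks went furthest, at -0.0043 thinned beside 0.85, followed by the monocyte median of that contrast, at -0.06 without other-class cells beside 0.56. The balance of higher and lower counts turned in the sponge contrast without a filter and in the Nos2 grouping at 2000 UMIs. No paired analysis was possible because each condition had 1 library, and leaving out a replicate was not possible for the same reason. The counts below give higher, then lower genes, where the main values are 36 and 1 against all neighbours, 313 and 205 against C3, 192 and 187 against C5, 275 and 102 against C7, 24 and 108 for sponge at 4 over 2 weeks, and 29 and 54 for silk over sponge at 2 weeks. Only counts that moved by over 1.5 times are given. With 50 CPM added, C3 gave 190 and 87, C5 120 and 96, C7 147 and 50, sponge 57 lower, silk 14 and 35, and none was lower than all neighbours. With no filter, C3 gave 491 higher, sponge 256 and 228, and silk 73 and 88. Thinned cells gave 64 lower against C3, 0 lower than all neighbours, 5 and 279 for sponge, and 6 and 123 for silk. With ratios centred on their median, which shifted by -0.20, sponge gave 46 and 71. Without cells with other-class UMIs, 98 were lower against C3, 0 lower than all neighbours, and 13 and 19 higher for sponge and silk. Genes higher than all neighbours numbered 29 to 50 over these settings, of which 27 to 36 were shared with the main 36. Lists with a median of 2-fold or more numbered 4, 3 and 3 against C3, C5 and C7 with 50 CPM added, 0 for sponge, 1 for sponge when thinned or averaged over cells, and 2 for silk when thinned. C4 made up 1.36%, 0.922% and 20.6% of all cells in silk at 2 weeks, sponge at 4 weeks and sponge at 2 weeks, 35.7% of myeloid cells without C9 and 36.2% of those with at least 1000 UMIs in sponge at 2 weeks. Cells with both Arg1 and Nos2 were 11.3% at 2000 UMIs and 17.3% unthinned. The Nos2 grouping gave 57 and 41 at 2000 UMIs, 26 lower with 50 CPM added, and 13 higher without other-class cells, a setting chosen after the data were seen. The interferon motif on 1 strand was in 4 interferon gamma genes. Of the list medians 132 values moved and 543 did not, and of the single genes 309 moved and 426 did not. In each of these the cause was not tested. Of the C4 cells compared, depth limits those of sponge at 4 weeks most, where 1 UMI is 3.22 CPM.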
